A study of Mus musculus with 3 samples.

Results

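Solute carriers are membrane proteins that move amino acids, sugars, nucleosides, ions, metals and metabolites across the plasma membrane and the membranes of organelles. The genes described here are 116 solute carrier genes expressed in Kupffer cells, the resident macrophages of the liver sinusoids, out of 369 gene symbols in the files that start with Slc and a digit. The iron and haem carriers Slc40a1, Slc48a1, Slc11a1 and Slc11a2 had been left out beforehand. A gene was kept when its level averaged at least 10 CPM over the 3 libraries. CPM is a gene's number of UMIs (molecular tags that mark each captured RNA once) per 1000000 UMIs summed over Kupffer cells. The members were chosen by their level in these Kupffer cells, which is therefore given as a description. The members nearest the limit were Slc14a1, a urea channel, with a mean of 10.6 CPM, and Slc7a6os with 10.8 CPM. Just outside it were the sugar carrier Slc2a8 with 9.91 CPM and Slc35b3 with 9.39 CPM. Of the 253 symbols below the limit, 98 had no UMI in any of the 3 libraries, 88 had a mean under 1 CPM and 67 lay between 1 and 10 CPM. Among those kept, 4 symbols name no carrier: Slc9a3r1 and Slc9a3r2 encode adaptors that bind sodium-proton exchangers, and Slc4a1ap and Slc7a6os are named after other carriers.

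The carriers of macrophages serve digestion as much as nutrition. Engulfed red cells, particles and dying cells are broken down in lysosomes, and carriers of the lysosomal membrane return amino acids, peptides, nucleosides and sugars to the cytosol. Carriers of the mitochondrial inner membrane exchange ADP, ATP, phosphate and metabolites with the cytosol, and carriers of the Golgi bring in the nucleotide sugars from which glycans are built.

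The cells came from 3 male mice aged 8 weeks, of which 1 ate normal chow and the others were fed the Lieber-DeCarli liquid diet containing 5% ethanol, 1 for 3 days and 1 for 10 days. Livers were perfused and digested with collagenase, and live cells with high F4/80 and intermediate CD11b were sorted and sequenced as 1 library per mouse. With 1 mouse per group no test between diets can be made, and a difference between mice, sorts or libraries cannot be told apart from one between diets. Since the control mouse ate solid chow, an effect of ethanol and an effect of liquid feeding cannot be told apart either. The strain is not given in the sources used here.

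A barcode counted as a Kupffer cell when it had at least 1000 UMIs, at least 300 genes, at most 10% mitochondrial UMIs and at least 1% of its UMIs from Clec4f, Cd5l, C1qa, C1qb and C1qc. This left 2537 cells on chow, 3820 at 3 days and 2724 at 10 days, with 12534618, 12964325 and 9130161 UMIs. Median depths were 4675, 3117 and 3080 UMIs per cell, so the chow cells were the deepest. The 5 genes of the rule themselves differed, with sums of 24396, 22256 and 21315 CPM. Among them C1qb had 3937, 2801 and 2236 CPM, while Cd5l had 5263, 5780 and 5705 CPM. A fixed marker share may therefore select cells differently in each library, which was not tested. Between 7 and 17 barcodes were shared by any pair of libraries, at most 0.631% of the smaller set. Kupffer cell markers that the rule did not use were present: all 10 listed (Vsig4, Timd4, Marco, Cd163, Adgre1, Csf1r, Lyz2, Fcna, Folr2 and Slc40a1) were above 10 CPM in each library, with summed levels of 18504, 18345 and 18892 CPM. The 10 T and NK cell markers summed to 125, 98.5 and 85.2 CPM in the same cells, and the 8 hepatocyte markers to 1125, 1249 and 1084 CPM, of which the transferrin gene Trf gave 730.1, 759.5 and 642 CPM. The 8 endothelial markers summed to 857, 897 and 1042 CPM, of which Cdh5 gave 629, 666 and 799 CPM and Stab2 132, 130.4 and 138 CPM. Of the other 6, Pecam1 had 51.1, 57.1 and 54.5 CPM, Kdr 8.06, 9.33 and 12.3 CPM, Ptprb 7.66, 9.02 and 10.95 CPM, Egfl7 6.38, 6.56 and 7.12 CPM, Clec4g 12.6, 8.87 and 11.2 CPM and Fcgr2b 10.6, 10.2 and 8.76 CPM, so that the list did not move in 1 direction. The list that differed most was that of plasma cells, with 115, 7.71 and 8.98 CPM for 3 markers, of which Igkc gave 97.3, 6.86 and 7.89 CPM, and the chow library stood apart in it. B cell markers summed to 48.1, 33.6 and 25.96 CPM. The part of either list in the ratios to chow below was not tested. Erythroid markers summed to 294, 356 and 321 CPM, with Alas2 at 0.558, 0.617 and 0.876 CPM. Here and below, 3 values in a row are chow, 3 days and 10 days.

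Among the 116 members, carriers of amino acids and peptides had the largest summed level, led by Slc15a3, Slc43a2, Slc3a2, Slc6a6 and Slc7a8. The iron exporter Slc40a1, which is no member, alone had 3255, 4179 and 4299.7 CPM. The 20 members of this class summed to 1900.4, 1914 and 1949 CPM, of 6378, 6535 and 6901 CPM for all 116. Each UMI stands for 1 molecule captured at its 3' end, so levels of different genes were compared without division by length. Slc15a3, which carries histidine and small peptides out of endosomes and lysosomes, had 422 CPM on chow, 342 at 3 days and 348 at 10 days. Its library on chow was the highest, and the ethanol libraries lay close together. The related carrier Slc15a4, which also serves signalling from endosomal Toll-like receptors, had 48.7 CPM on chow, 82.1 at 3 days and 82.1 at 10 days, so that here chow was the lowest. Slc3a2 encodes CD98, the heavy chain that brings several amino acid exchangers to the cell surface, and had 264 CPM on chow, 230.0 at 3 days and 264 at 10 days. Among the light chains that pair with it, Slc7a8 (LAT2, an exchanger of neutral amino acids) had 221, 205 and 269.5 CPM and Slc7a7 (y+LAT1, an exporter of arginine and lysine) had 89.03, 83.5 and 99.2 CPM. The light chains Slc7a5 (LAT1), Slc7a6 (y+LAT2) and Slc7a11 (the cystine carrier xCT) stayed below the limit, at 2.79, 1.70 and 2.41 CPM, 1.68, 2.01 and 1.75 CPM and 0.718, 0.0771 and 0.438 CPM. Kupffer cells of all 3 libraries thus held mostly LAT2 and y+LAT1 among these light chain RNAs.

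Other amino acid carriers were spread over a wide range. Slc43a2 (LAT4, which lets neutral amino acids leave the cell) had 249, 289 and 223 CPM, highest at 3 days and lowest at 10 days. The taurine carrier Slc6a6 had 218, 247 and 234 CPM, with intervals of 210.1 to 227, 239 to 256 and 225 to 245 CPM (exact Poisson 95% intervals, which cover counting error only). The glutamate carriers Slc1a2 and Slc1a3, best known from astrocytes, had 47.1, 32.6 and 33.8 CPM and 36.7, 35.8 and 30.6 CPM. Members that act at the lysosome in amino acid sensing and export were Slc36a1 with 26.6, 40.6 and 31.2 CPM, Slc38a9 with 21.7, 20.6 and 20.2 CPM and Slc38a7 with 16.6, 20.7 and 19.6 CPM. Slc38a9, which signals arginine to the growth regulator mTORC1, differed least of these 3 genes.

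The Slc25 family, taken here as the mitochondrial class, came next, with 22 members that summed to 1496, 1578 and 1601 CPM. It includes Slc25a17, which is peroxisomal, while the mitochondrial exchanger Slc8b1 was counted with the inorganic ions. The phosphate carrier Slc25a3 had 369, 442 and 440.4 CPM and the ADP/ATP exchanger Slc25a5 436, 410.0 and 379 CPM. Chow was thus the lowest library for the phosphate carrier and the highest for the exchanger. Processed copies of Slc25a5 exist in the genome and how their reads were counted is not stated, so its level is uncertain. The second ADP/ATP exchanger, Slc25a4, had 72.4, 66.8 and 59.8 CPM. Slc25a39, which brings glutathione into mitochondria, had 85.4, 74.8 and 97.8 CPM, and the pyrimidine nucleotide carriers Slc25a36 and Slc25a33 had 67.3, 95.5 and 77.98 CPM and 55.8, 44.7 and 57.7 CPM. The mitochondrial iron importers Slc25a28 and Slc25a37 were low, with 17.6, 24.9 and 23.3 CPM and 10.1, 14.3 and 14.3 CPM.

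Among the 17 members for inorganic ions, Slc8b1, the sodium-calcium exchanger of mitochondria, led with 123, 145 and 163 CPM. The adaptor Slc9a3r1 had 116, 132 and 143 CPM and the endosomal proton exchanger Slc9a9 109.8, 114 and 109 CPM. For Slc8b1 and Slc9a3r1 chow was the lowest and 10 days the highest library. Slc12a7, a potassium-chloride cotransporter that lets cells lose volume, had 84.5, 83.8 and 111 CPM. Of the 15 metal carriers, Slc39a1 (ZIP1), a zinc importer of the plasma membrane, had the highest level with 179 CPM on chow, 157 at 3 days and 223 at 10 days. Slc39a7 (ZIP7), which releases zinc from the endoplasmic reticulum, had nearly the same value in each library, 78.5, 78.5 and 79.95 CPM. The zinc exporter Slc30a1 had 36.9, 32.7 and 34.9 CPM, and the copper carriers Slc31a2 and Slc31a1 had 50.02, 60.6 and 49.6 CPM and 31.8, 35.02 and 27.6 CPM.

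The 16 members classed as carriers of nucleotide sugars and acetyl-CoA of the endoplasmic reticulum and Golgi were all modest. Their means ran from 14.9 CPM for Slc35e3 to 50.1 CPM for Slc35c2. The class was set by family number, not by a known substrate of each member. Slc35b2, which carries the sulfate donor PAPS, had 46.2, 44.5 and 44.6 CPM, and Slc35c2 and Slc35f6 had 53.9, 45.1 and 51.3 CPM and 49.4, 50.2 and 45.6 CPM. Of 7 symbols of nucleoside carriers, 3 were members. Slc29a1 (ENT1), which passes adenosine and other nucleosides through the plasma membrane, had 253 CPM on chow, 196 at 3 days and 288 at 10 days, lowest at 3 days. Its lysosomal relative Slc29a3, mutated in inherited histiocytosis, had 63.5, 66.3 and 55.3 CPM, and the concentrating carrier Slc28a2 had 33.6, 32.8 and 41.7 CPM.

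Sugar carriers at the cell surface were low. The glucose carriers Slc2a1 (GLUT1) and Slc2a3 (GLUT3) stayed below the limit with 11.1, 6.02 and 6.90 CPM and 6.30, 7.79 and 4.16 CPM, and the only member of the Slc2 family was the lysosomal Slc2a6 (GLUT6) with 9.41, 10.5 and 21.9 CPM. The leading members of this class were Slc45a4 with 58.6, 63.9 and 68.7 CPM, Slc45a3 with 53.1, 62.6 and 71.6 CPM and Slc37a2, a carrier of glucose 6-phosphate, with 46.99, 45.8 and 39.8 CPM. Among monocarboxylate carriers Slc16a9, which has been linked to carnitine, had 97.6, 105 and 111 CPM, Slc16a6 had 28.6, 22.8 and 26.3 CPM and Slc16a7 (MCT2) 10.9, 9.95 and 13.1 CPM. The lactate carriers Slc16a1 (MCT1) and Slc16a3 (MCT4) were below the limit, with 0.878, 1.39 and 1.10 CPM and 6.62, 8.56 and 10.3 CPM. Choline carriers were present as Slc44a2 with 77.5, 64.9 and 91.2 CPM and Slc44a1 with 27.3, 32.3 and 37.3 CPM, beside Slc10a3 with 21.5, 20.9 and 21.4 CPM and the fatty acid carriers Slc27a4 with 18.7, 21.6 and 23.3 CPM and Slc27a1 with 8.54, 21.2 and 14.2 CPM. In the vitamin class the lysosomal Slc46a3 had 48.1, 59.9 and 49.5 CPM, the vitamin C carrier Slc23a2 27.6, 27.3 and 31.8 CPM and the folate carrier Slc46a1 17.6, 13.8 and 20.3 CPM. Sialin, Slc17a5, which takes sialic acid out of lysosomes, had 26.4, 36.3 and 26.2 CPM, and Slc22a23 and Slc22a18 had 24.3, 22.7 and 23.1 CPM and 14.1, 16.7 and 17.2 CPM.

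**Figure D1:**
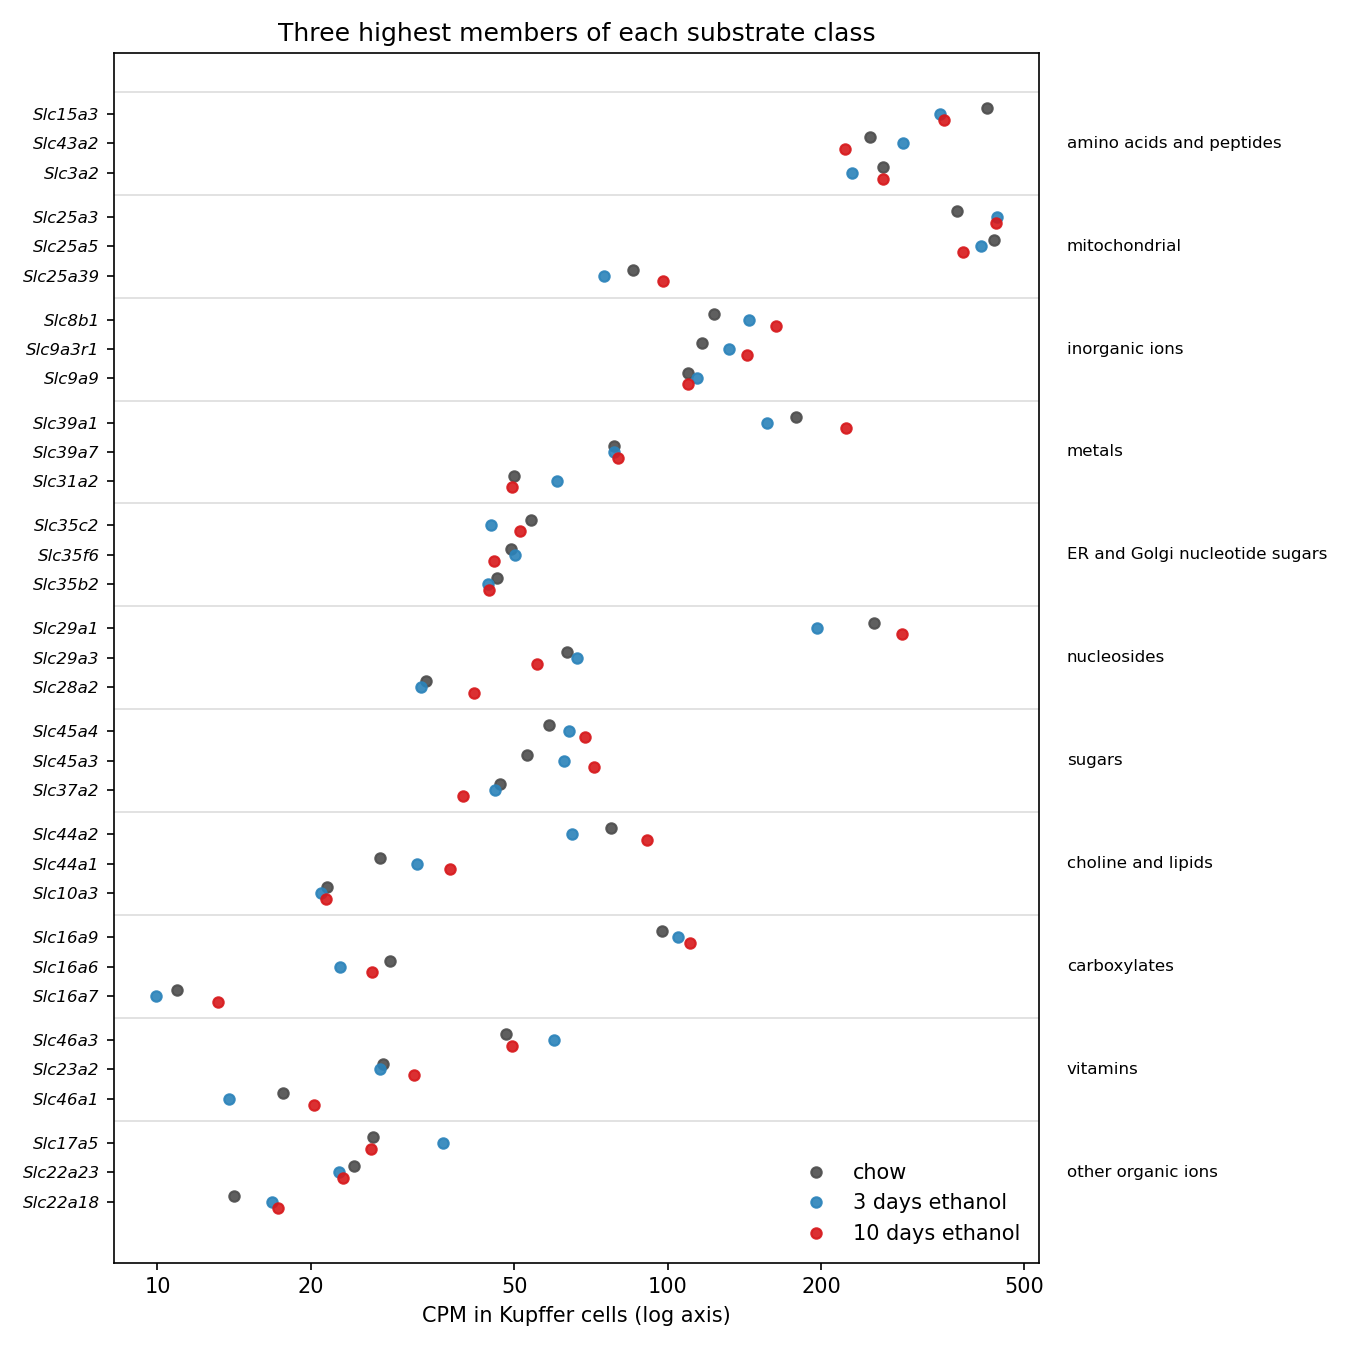
Level in Kupffer cells (CPM, log axis) of the 3 highest members of each substrate class, with 1 point per library. Slc15a3, Slc25a3 and Slc25a5 lie near 400 CPM (means of 371, 417 and 409 CPM), and most other rows lie below 100 CPM with the 3 libraries close together.

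The same libraries held other sorted cells, which show which carriers Kupffer cells share with them. T and NK cells (107, 79 and 134 barcodes) and endothelial cells (38, 92 and 64) were barcodes with under 1% Kupffer marker UMIs and at least 0.5% of UMIs from markers of that type. The level in Kupffer cells had chosen the members, which raises the number on the Kupffer side, so these values are given with no test. Of the 116 members, 77 were higher in Kupffer than in T and NK cells with no overlap between the 3 libraries of each, 8 were lower and 31 overlapped. Over all 7550 genes with a mean of at least 10 CPM the first share was 43.4% and the second 19.3%. Against endothelial cells 52 members were higher with no overlap, 21 were lower and 43 overlapped, beside background shares of 26.4% and 24%.

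Slc15a3 had 28.2, 24.6 and 23.8 CPM in T and NK cells and 37.2, 46.2 and 13.1 CPM in endothelial cells, far below its level in Kupffer cells in each library. Slc7a8 was as distinct, with 10.3, 4.09 and 20.8 CPM and 9.29, 27.7 and 13.1 CPM, and the taurine carrier Slc6a6 had 48.8, 36.8 and 44.6 CPM and 46.4, 50.8 and 78.6 CPM. Slc16a9 had 0, 0 and 2.97 CPM in T and NK cells and 0, 9.23 and 6.55 CPM in endothelial cells. No UMI of Slc1a3 was seen in either kind of cell, which allows up to 7.70, 12.3 and 8.92 CPM in T and NK cells and 27.9, 13.9 and 19.6 CPM in endothelial cells. Slc37a2 had 2.57, 4.09 and 2.97 CPM and 0, 9.23 and 6.55 CPM, and Slc45a3 7.70, 0 and 2.97 CPM and 0, 9.23 and 13.1 CPM. In all these genes the lowest Kupffer library was above the highest library of the other 2 kinds of cell.

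Other carriers were common to several kinds of cell or higher elsewhere. CD98 heavy chain RNA (Slc3a2) had 151, 159.7 and 175 CPM in T and NK cells and 204, 226 and 189.9 CPM in endothelial cells. Slc25a5 had 526, 536 and 366 CPM in T and NK cells, overlapping the Kupffer libraries. The nucleoside carrier Slc29a1 was higher in endothelial cells, with 483, 577 and 524 CPM, and so were the amino acid carrier Slc38a2 with 149, 139 and 157 CPM and the choline carrier Slc44a1 with 139, 139 and 91.7 CPM. The adaptor Slc9a3r2 had 279, 429 and 308 CPM in endothelial cells and 7.70, 0 and 2.97 CPM in T and NK cells. In Kupffer cells it stood at 7.98, 20.1 and 28.1 CPM.

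**Figure D2:**
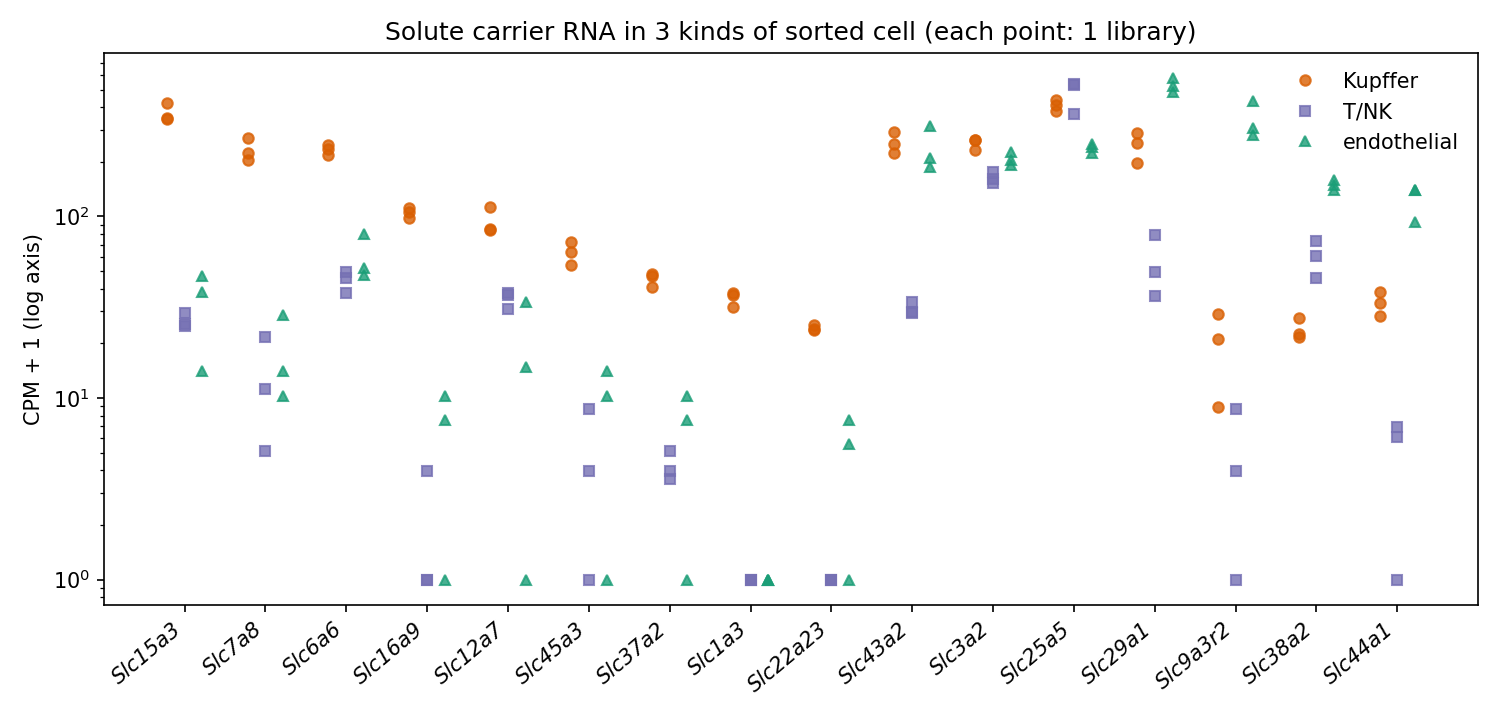
Level of 16 solute carrier genes (CPM with 1 added, log axis) in Kupffer, T/NK and endothelial cells, with 1 point per library. Slc15a3 lies between 342 and 422 CPM in Kupffer cells and at or below 46.2 CPM in the other cells, while Slc29a1, Slc9a3r2, Slc38a2 and Slc44a1 are highest in endothelial cells.

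At equal depth every member was seen in a minority of Kupffer cells. Cells were thinned to 1000 UMIs each, which left out none, and shares of cells with a UMI were counted. Slc15a3 was seen in 33.5%, 28.6% and 26.5% of Kupffer cells (77.3%, 60.7% and 62.3% before thinning) and in 5.61%, 1.27% and 2.99% of T and NK cells, whose median depths were 3526, 2605 and 2427.5 UMIs. The shares of Slc7a8 were 20.7%, 19.5% and 24.2% (62.6%, 48.2% and 56.2% before thinning), and among T and NK cells 0%, 0% and 2.24%. Slc16a9 was found in 9.97%, 10.5% and 11.7% (before thinning 36.3%, 29.1% and 29.1%), but in 0 thinned T and NK cells. A count of 0 allows up to 2.80, 3.80 and 2.24% of T and NK cells to hold a UMI at this thinned depth and does not limit the share that express the gene, of which 1 UMI was seen before thinning, at 10 days. Shares for Slc25a5 were 34.1%, 32.8% and 30.03% (79.03%, 67.6% and 64.5% before thinning), and those in T and NK cells, which use this gene too, were 45.8%, 36.7% and 27.6%. The shares of Slc16a10 were 3.82%, 5.97% and 6.98% (14.8%, 15.99% and 19.5% before thinning), and after thinning 1 T or NK cell, on chow, held it (0.935%). Before thinning, T and NK cells held 3, 2 and 1 UMIs of it. In thinned cells the ratio of variance to mean of the count, which is 1 for random capture, had medians over the members of 1.00, 1.02 and 1.01 and did not exceed 1.15. At this depth the data thus did not separate Kupffer cells with and without a carrier.

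**Figure D3:**
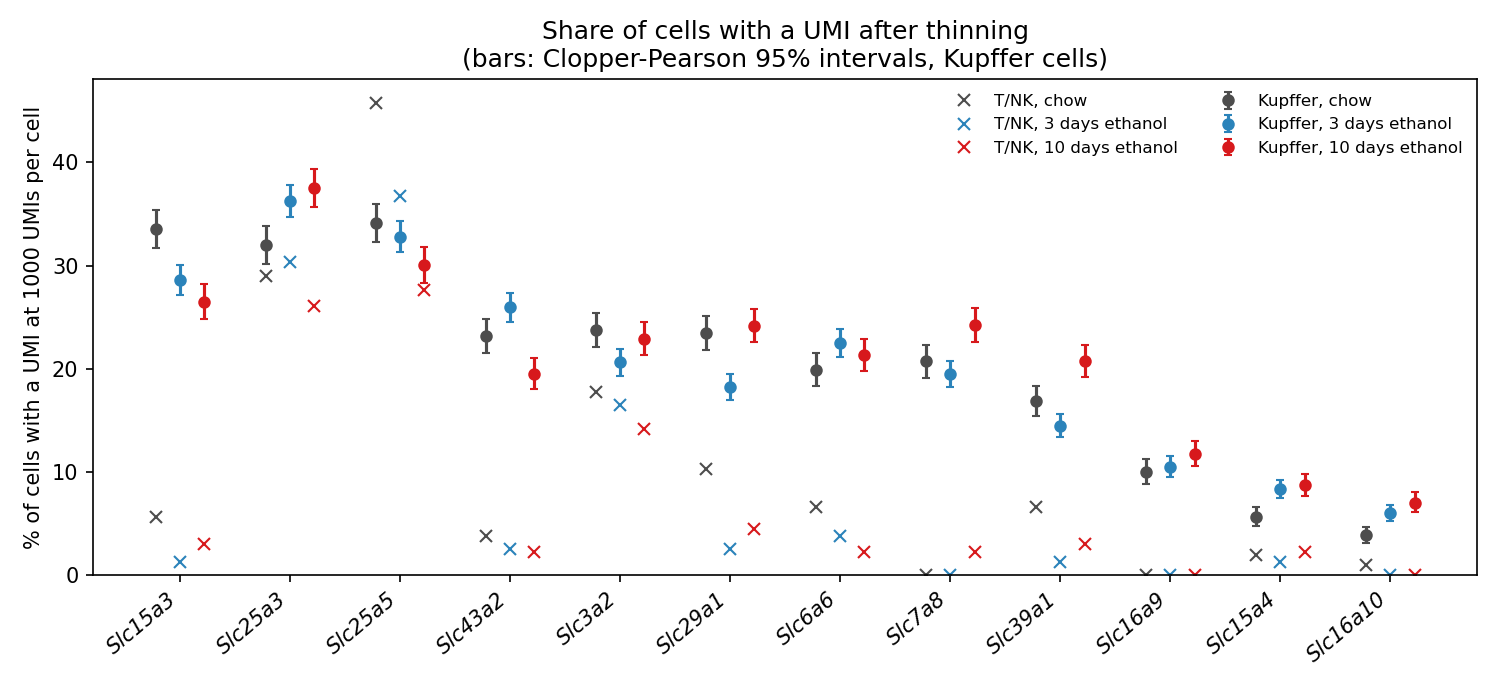
Share of cells with a UMI (%) of 12 members after thinning every cell to 1000 UMIs, for Kupffer cells (points with exact Clopper-Pearson 95% intervals) and T/NK cells (crosses) of each library. Slc15a3 is at 33.5% on chow and 26.5% at 10 days, and the shares of T/NK cells are near those of Kupffer cells only for Slc25a3, Slc25a5 and Slc3a2.

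The library at 3 days was set against that on chow, with 1 mouse in each, so a difference need not be one of diet. A ratio of CPM above 1.5 or below 1/1.5 was called higher or lower. In this comparison 7 of the 116 members (6.03%) were higher and 0 were lower, beside background shares of 3.21% and 1.25% over all 7550 genes. Of the 7, 3 (Slc9a3r2, Slc27a1 and Slc7a2) were under 10 CPM on chow and reached the limit only through the ethanol libraries, so the rule itself favours higher over lower calls against chow and nothing is read from the count. The 7 were carriers of peptides, amino acids, fatty acids and acylcarnitine and the adaptor Slc9a3r2.

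Of the 7, 4 carry amino acids or peptides. Slc15a4 (ENSMUSG00000029416, chromosome 5, 127595664 to 127632897) had 610, 1064 and 750 UMIs and a ratio of 1.69 (1.53 to 1.87), with its exact conditional binomial 95% interval in parentheses, as below. Coordinates are those of the whole gene on GRCm38. Slc16a10 (TAT1, ENSMUSG00000019838, chromosome 10, 40033532 to 40142258), through which aromatic amino acids leave cells, had 33.03, 53.1 and 67.8 CPM and a ratio of 1.61 (1.42 to 1.82). The proton-coupled amino acid carrier of lysosomes, Slc36a1 (ENSMUSG00000020261, chromosome 11, 55204350 to 55236330), had 26.6, 40.6 and 31.2 CPM and a ratio of 1.53 (1.33 to 1.76). Its call was lost with TMM scaling (1.497) and with a Kupffer marker share of at least 3% (1.395). Slc7a2 (CAT2, ENSMUSG00000031596, chromosome 8, 40862396 to 40922308), which imports arginine, had 6.62, 13.1 and 14.3 CPM from 83, 170 and 131 UMIs, a ratio of 1.98 (1.51 to 2.61). For all 4 genes chow was the lowest of the 3 libraries. Slc36a1 was highest at 3 days, Slc15a4 was level between the ethanol libraries, and Slc16a10 and Slc7a2 were highest at 10 days.

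The promoters of 3 of these genes are shown because all 3 were past the line at 3 days, Slc36a1 only just, and 2 of them, Slc36a1 and Slc15a4, serve the lysosome, whose genes often hold the CLEAR element bound by TFEB and TFE3. The sequences are from RefSeq on GRCm38.p6, 5′ to 3′, from 250 bases before to 50 bases after the start, with TCACGTGA in capitals.
Slc36a1, chr11:55204090-55204389 (+ strand): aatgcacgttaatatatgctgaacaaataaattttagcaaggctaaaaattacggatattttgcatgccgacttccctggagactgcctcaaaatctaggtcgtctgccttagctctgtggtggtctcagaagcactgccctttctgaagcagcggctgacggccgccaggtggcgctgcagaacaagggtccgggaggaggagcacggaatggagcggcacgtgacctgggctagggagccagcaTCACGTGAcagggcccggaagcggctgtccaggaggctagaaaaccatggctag
Slc15a4, chr5:127617343-127617642 (- strand): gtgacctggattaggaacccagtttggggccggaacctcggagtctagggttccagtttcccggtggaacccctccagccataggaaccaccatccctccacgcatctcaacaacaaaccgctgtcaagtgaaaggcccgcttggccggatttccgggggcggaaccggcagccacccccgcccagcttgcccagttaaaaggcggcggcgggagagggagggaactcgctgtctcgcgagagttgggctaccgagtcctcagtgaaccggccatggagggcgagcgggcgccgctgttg
Slc16a10, chr10:40142205-40142504 (- strand): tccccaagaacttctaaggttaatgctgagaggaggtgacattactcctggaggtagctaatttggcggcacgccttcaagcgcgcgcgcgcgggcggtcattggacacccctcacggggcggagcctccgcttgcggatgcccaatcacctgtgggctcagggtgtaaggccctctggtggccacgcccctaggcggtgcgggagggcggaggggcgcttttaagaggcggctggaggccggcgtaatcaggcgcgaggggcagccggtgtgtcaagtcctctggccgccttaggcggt
The element TCACGTGA, which reads the same on both strands, stands at bases 247 to 254 of the Slc36a1 window and is not in the other 2 windows. It was in 0.974% of all 32851 promoter windows and in 3 of the 121 windows (2.48%) of the 92 members that matched by symbol, those of Slc36a1, Slc25a36 and Slc35a5. Over both strands the metal response element (TGCACNC or TGCGCNC) was in 44 of these windows (36.4%) and 25.7% of all windows. The antioxidant response element (TGACNNNGC) was in 20 (16.5%) and 12.4%, and the C/EBP-ATF element (TGATGNAA) in 4 (3.31%) and 3.97%. Matches to different motifs may overlap, and a match is a stretch of letters, not a site of binding. Of the 10 members called in any comparison 8 matched a window, and Slc7a2 and Slc35d2 did not.

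The other 3 genes higher at 3 days were of other kinds. Slc27a1 (FATP1, ENSMUSG00000031808, chromosome 8, 71568882 to 71587302), which takes part in fatty acid uptake, had 107, 275 and 130 UMIs, 8.54, 21.2 and 14.2 CPM and a ratio of 2.48 (1.98 to 3.14). Slc25a20 (ENSMUSG00000032602, chromosome 9, 108662088 to 108684641), which brings acylcarnitines into mitochondria for oxidation, had 12.1, 19.5 and 16.9 CPM and a ratio of 1.61 (1.31 to 1.98). Slc9a3r2 (NHERF2, ENSMUSG00000002504, chromosome 17, 24639286 to 24650327) had the highest ratio of all members, 2.52 (2.00 to 3.21), from 100, 261 and 257 UMIs. In all 3 genes chow was the lowest library, and the Poisson intervals of chow and 3 days did not overlap.

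Free RNA and endothelial RNA were measured beside these genes. In barcodes with 10 to 100 UMIs, which hold free RNA, Slc9a3r2 had 15.5, 27.2 and 38.7 CPM, Slc27a1 19.04, 27.7 and 20.8 CPM, Slc25a20 7.09, 20.5 and 12.03 CPM and Slc7a2 7.09, 19.5 and 13.98 CPM. Kupffer cell RNA was part of this pool. Clec4f had 4441, 4210 and 3574 CPM in it and 4071, 4004 and 4078 CPM in Kupffer cells. C1qb had 3538, 2720 and 1696 CPM and 3937, 2801 and 2236 CPM. Levels in free RNA are therefore not independent of those in Kupffer cells. For Slc9a3r2 and Slc27a1 the free level was above that in Kupffer cells in each library. The order of the 3 libraries was the same in free RNA and Kupffer cells for Slc9a3r2, Slc27a1, Slc25a20, Slc16a10 and Slc36a1. Slc7a2 was highest at 10 days in Kupffer cells and at 3 days in free RNA, and Slc15a4 was level between the ethanol libraries in Kupffer cells. Slc15a4 had 60.9, 72.2 and 74.4 CPM in free RNA, Slc16a10 31.2, 36.1 and 52.3 CPM and Slc36a1 26.1, 39.5 and 32.5 CPM, so that chow was the lowest library there for all 7 genes. In T and NK cells of the same suspensions Slc9a3r2 had 7.70, 0 and 2.97 CPM, Slc27a1 5.13, 4.09 and 2.97 CPM, Slc25a20 7.70, 8.19 and 2.97 CPM and Slc7a2 0, 4.09 and 0 CPM. The carriers of hepatocytes Slc38a3, Slc27a2 and Slc10a1 had 1.55, 19.01 and 2.28 CPM, 3.54, 15.2 and 2.60 CPM and 0.886, 7.94 and 2.28 CPM in free RNA, highest at 3 days, but 0.718, 1.08 and 0.986 CPM, 0.718, 1.23 and 1.31 CPM and 0.718, 0.848 and 0.438 CPM in Kupffer cells. The part of free RNA in the ratios of these 7 genes was not tested. Slc43a3, a carrier that had 502, 646 and 759.7 CPM in endothelial cells, had 5.11, 5.48 and 3.83 CPM in Kupffer cells. Endothelial markers in Kupffer cells went both ways, with Kdr and Ptprb higher at 10 days than on chow and Clec4g and Fcgr2b lower. As an alternative, barcodes that held a UMI of Kdr, Ptprb, Clec4g, Stab2 or Egfl7 were left out. This removed 1293, 1467 and 1096 Kupffer cells and kept 1244, 2353 and 1628. Slc9a3r2 then had 8.07, 17.9 and 28.3 CPM from 43, 132 and 141 UMIs, beside 7.98, 20.1 and 28.1 CPM in all Kupffer cells. Of the 5 genes Stab2 was by far the highest in Kupffer cells, with 132, 130.4 and 138 CPM. It had only 12.8, 16.4 and 26.8 CPM in T and NK cells. The barcodes were thus left out largely for Stab2, so this alternative cannot decide the part of endothelial RNA. The part of endothelial RNA in the ratios of Slc9a3r2 was not tested.

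Every ratio at 3 days was above 1/1.5. The lowest was that of the glutamate carrier Slc1a2, 0.693 (0.610 to 0.787), and next came Slc29a1 with 0.774 (0.734 to 0.816) and the folate carrier Slc46a1 with 0.783 (0.639 to 0.958). The mitochondrial dicarboxylate carrier Slc25a10 had 0.790, Slc16a6 0.799, Slc25a33 0.802, the citrate carrier Slc25a1 0.810 and Slc15a3 0.810. The choline carrier Slc44a2 with 0.838 and Slc35c2 with 0.838 completed the 10 lowest. Just under the line for higher values were the mitochondrial iron importers Slc25a37 with 1.43 and Slc25a28 with 1.42, the sulfate carrier family member Slc26a11 with 1.43 and Slc25a36 with 1.42.

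**Figure D4:**
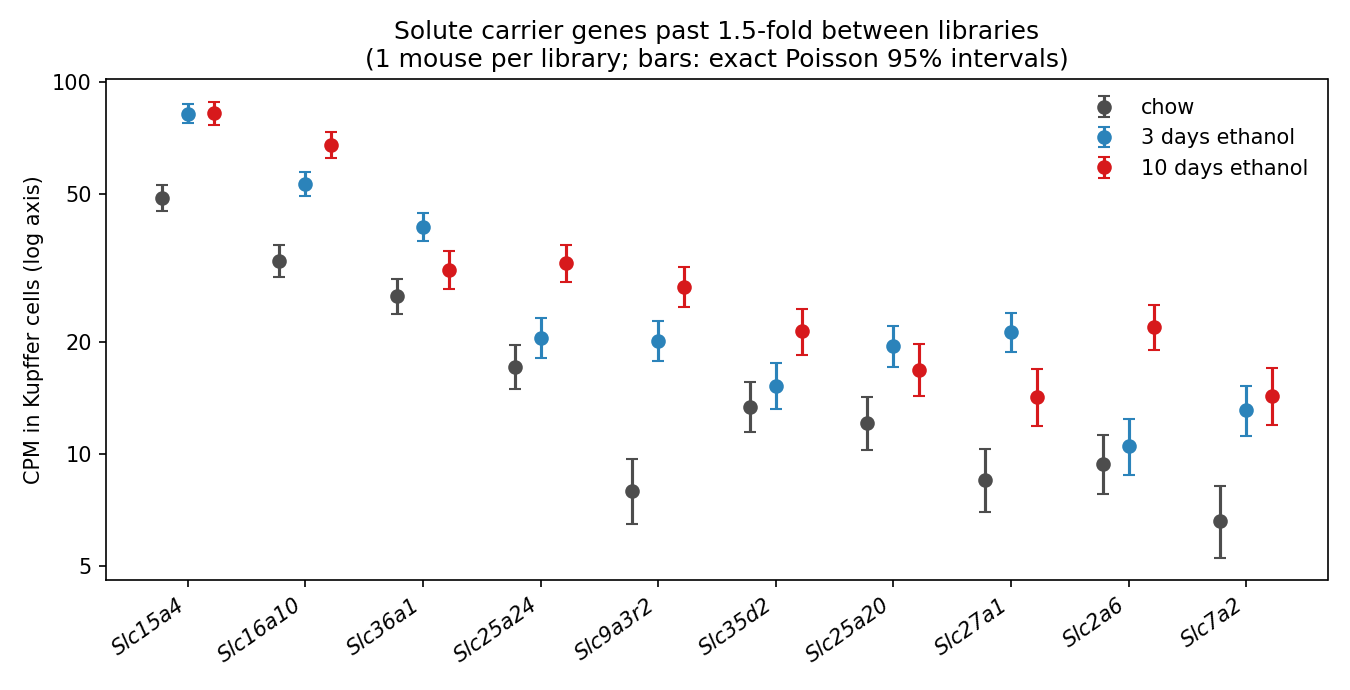
Level in Kupffer cells (CPM, log axis) of the 10 members past 1.5-fold in any comparison, with exact Poisson 95% intervals, 1 mouse per library. Chow is the lowest library for each of the 10, and Slc2a6 and Slc25a24 stand out at 10 days, with 21.9 and 32.5 CPM. Slc9a3r2, Slc27a1, Slc7a2 and Slc2a6 were under 10 CPM on chow and were kept only through the ethanol libraries, which favours a low chow value. With a Kupffer marker share of at least 3% Slc2a6 and Slc35d2 were lower at 10 days than on chow.

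The comparison of 10 days with chow uses the same chow library, so its values are set beside those above and are not independent of them. Here 8 of the 116 members (6.90%) were higher and 0 were lower, beside 3.76% and 2.42% of all genes. Of the 8, 4 (Slc9a3r2, Slc2a6, Slc7a2 and Slc27a1) were under 10 CPM on chow and were kept only through the ethanol libraries, so nothing is read from this count either. Of the 8, 5 had also been called at 3 days. Slc9a3r2 had a ratio of 3.53 (2.79 to 4.49) at 10 days, Slc7a2 of 2.17 (1.63 to 2.89), Slc16a10 of 2.05 (1.81 to 2.33), Slc15a4 of 1.69 (1.51 to 1.88) and Slc27a1 of 1.67 (1.28 to 2.17). Slc15a4 had the same level at both times, while Slc27a1 was lower at 10 days than at 3 days.

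The other 3 genes were past the line at 10 days and under it at 3 days, a difference that was not tested. The lysosomal sugar carrier Slc2a6 (ENSMUSG00000036067, chromosome 2, 27021363 to 27027998), a target of inflammatory signals in macrophages, had 118, 136 and 200 UMIs, 9.41, 10.5 and 21.9 CPM and a ratio of 2.33 (1.84 to 2.95). The direction turned to 0.737 with a Kupffer marker share of at least 3%, which kept 259, 170 and 59 cells. Slc25a24 (ENSMUSG00000040322, chromosome 3, 109123149 to 109168457), which exchanges ATP-magnesium for phosphate across the mitochondrial membrane in answer to calcium, had 17.2, 20.5 and 32.5 CPM and 1.90 (1.59 to 2.27). The nucleotide sugar carrier Slc35d2 (ENSMUSG00000033114, chromosome 13, 64096308 to 64129368) had 13.4, 15.3 and 21.4 CPM and 1.59 (1.29 to 1.97), which turned to 0.860 with that marker share and passed the line in 6 of 9 alternatives. In each of these genes chow and 3 days lay close together and 10 days stood above both. The next 2 of the 10 highest were under the line, Slc35e3 with 1.47 and the mitochondrial glutamate carrier Slc25a22 with 1.44.

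The lowest ratio at 10 days was again that of Slc1a2, 0.719 (0.625 to 0.827). It was followed by the bicarbonate carrier Slc4a7 with 0.749 (0.615 to 0.910), Slc22a17 with 0.767, Slc50a1, a sugar carrier of the SWEET family, with 0.769 and Slc12a9 with 0.776. Slc35a4 had 0.777, the urea channel Slc14a1 0.797, Slc15a3 0.823, Slc25a4 0.826 and Slc1a3 0.833. The interval of Slc14a1, 0.597 to 1.06, included 1. Slc15a3, the most abundant lysosomal member, was thus lower than on chow in both ethanol libraries by less than the line, while its relative Slc15a4 was higher in both.

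Between the 2 ethanol libraries 2 members (1.72%) were higher at 10 days and 0 were lower, beside background shares of 2.21% and 1.92%. Slc2a6 had a ratio of 2.09 (1.67 to 2.62) and Slc25a24 of 1.59 (1.34 to 1.88). Slc35e3 with 1.47, Slc29a1 with 1.47 (1.39 to 1.55) and Slc46a1 with 1.47 came next, and the zinc importer Slc39a1 had 1.42 (1.34 to 1.51). The lowest ratios were those of Slc27a1 with 0.671 (0.541 to 0.830), Slc14a1 with 0.706, Slc12a9 with 0.716, sialin Slc17a5 with 0.722 and Slc35e1 with 0.762. For Slc29a1 and Slc39a1 3 days was the lowest and 10 days the highest library, an order also seen in other members such as Slc7a8, Slc7a7 and Slc44a2. In all 3 comparisons 106 of the 116 members stayed within 1.5-fold, and 44 differed by less than 1.2-fold between their highest and lowest library.

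By substrate class the called members were few. Of all 7550 genes 3.21% were higher at 3 days and 3.76% at 10 days. The classes are small, and Slc7a2, Slc27a1, Slc9a3r2 and Slc2a6 were kept only through the ethanol libraries, so nothing is read from the counts. At 3 days 4 of the 20 amino acid and peptide carriers were higher, with a class median log2 ratio of 0.15 (1 CPM added to both sides), beside 0.07 for the 116 members and 0.04 for all 7550 genes. The choline and lipid class had 1 of 6 higher and a median of 0.19, the inorganic ion class 1 of 17 and 0.06, and the mitochondrial class 1 of 22 and 0.10. None of the 15 metal carriers, 16 Golgi carriers, 6 sugar carriers, 5 other organic ion carriers or the 3 members each of the nucleoside, carboxylate and vitamin classes was called at 3 days. At 10 days the amino acid class had 3 of 20 higher with a median of 0.08, the sugar class 1 of 6 with 0.27, the choline and lipid class 1 of 6 with 0.27 and the mitochondrial class 1 of 22 with 0.19. The Golgi class had 1 of 16 with 0.18 and the inorganic ion class 1 of 17 with 0.18. Medians over all members were 0.18 at 10 days over chow and 0.06 at 10 over 3 days, beside 0.07 and 0.02 for all genes.

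**Figure D5:**
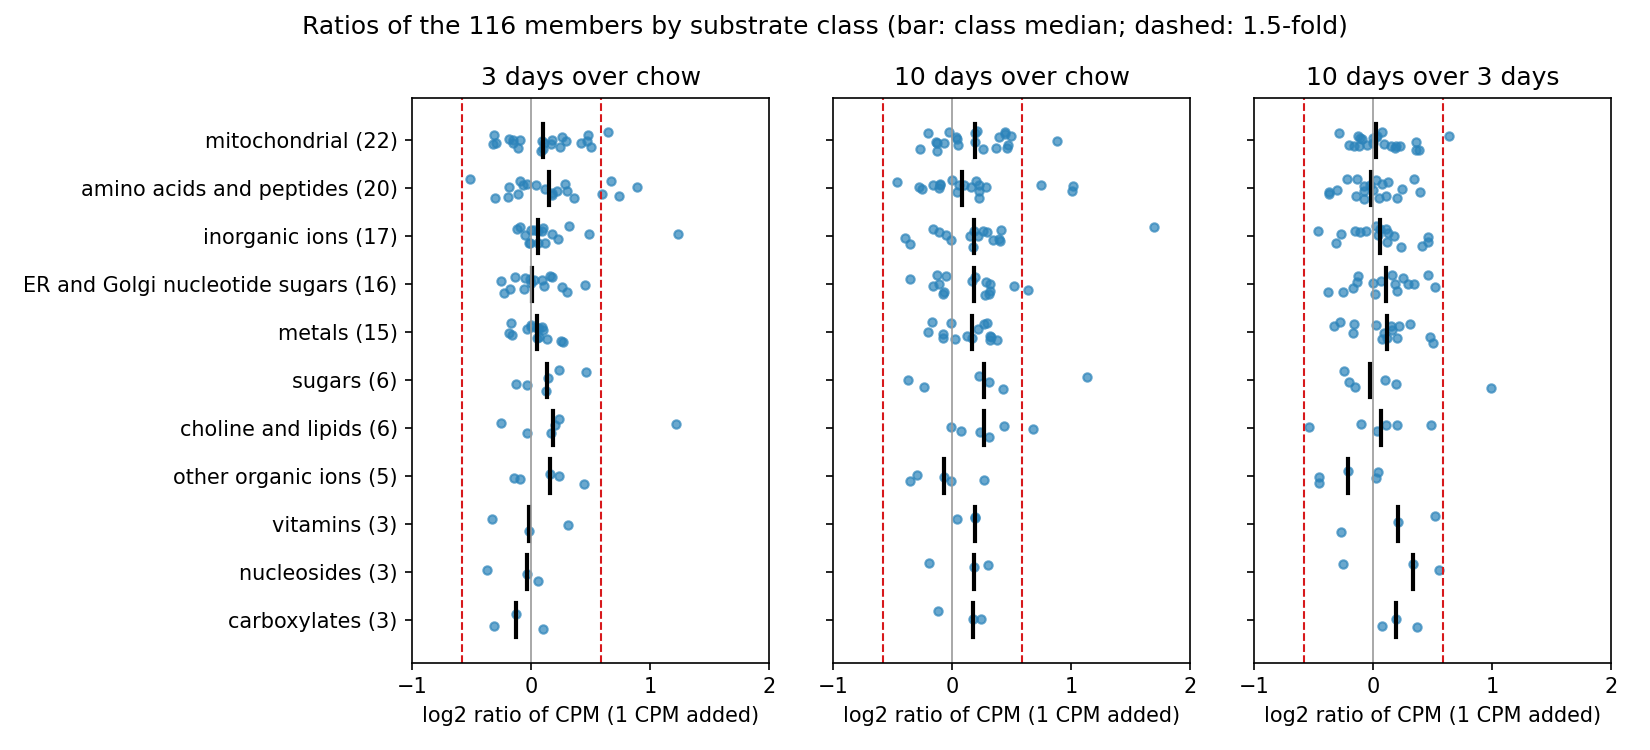
Log2 ratio of each of the 116 members (points, 1 CPM added) by substrate class in the 3 comparisons, with the class median (bar) and the 1.5-fold lines (dashed). Points past a line lie on the higher side, 7 at 3 days over chow, 8 at 10 days over chow and 2 at 10 over 3 days. Of all 7550 genes 3.21%, 3.76% and 2.21% were higher and 1.25%, 2.42% and 1.92% lower. Several of these members reached the 10 CPM limit only through the ethanol libraries, so nothing is read from the direction against chow.

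Carriers without an Slc symbol and partners of carriers gave the surroundings. Of 27 such carriers 16 were measured, of which 0 were higher or lower at 3 days, and 1 was higher and 1 lower at 10 days. The higher one was Sfxn3, a mitochondrial sideroflexin, with 17.1, 23.2 and 26.4 CPM and a ratio of 1.55 (1.28 to 1.87), and the lower one Mpc1, a subunit of the mitochondrial pyruvate carrier, with 47.6, 36.7 and 30.1 CPM and a ratio of 0.632 (0.546 to 0.731). Its partner subunit Mpc2 had 114, 109 and 103 CPM. The proton carrier Ucp2 had 911, 1223 and 1044 CPM, the chaperone of endosomal Toll-like receptors Unc93b1 805, 668 and 729 CPM and the lysosomal cystine exporter Ctns 27.3, 36.8 and 38.1 CPM. Of 21 partners and regulators 16 were measured, with 2 higher at 3 days, 2 higher at 10 days and 0 lower in either comparison with chow. Over all 7550 genes the shares were 3.21% higher and 1.25% lower at 3 days and 3.76% and 2.42% at 10 days. Nothing is read from the counts of these 2 short lists. Txnip, which brings glucose carriers in from the cell surface, had 474, 861 and 870.0 CPM, with ratios of 1.82 (1.76 to 1.88) and 1.84 (1.77 to 1.90). The zinc-binding metallothionein Mt1 had 139.9, 241 and 124 CPM, with a ratio of 1.72 at 3 days, and Myc had 23.5, 19.1 and 36.8 CPM, with 1.57 at 10 days. In free RNA Txnip had 574, 950 and 943 CPM, Mt1 152, 488 and 148 CPM and Myc 25.5, 21.7 and 39.3 CPM. Endothelial cells had 1059, 1551 and 1349 CPM of Txnip and 1013, 2784 and 1061 CPM of Mt1. The part of free RNA in the ratios of these 3 genes was not tested. Basigin (Bsg), the chaperone of monocarboxylate carriers, had 290.1, 287 and 299 CPM. The factors of the CLEAR element, Tfe3 and Tfeb, had 98.5, 111 and 112 CPM and 27.05, 31.5 and 33.1 CPM, and stayed within the line.

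Kupffer cells with at least 2 UMIs of Mki67, Top2a, Birc5 and Ube2c, genes of dividing cells, numbered 63, 83 and 59 and were set beside the other Kupffer cells of their library. They were deeper, with medians of 6695, 4717 and 4436 UMIs against 4634, 3086 and 3057. Of the 116 members 9 were higher and 11 lower with no overlap between the 3 libraries of each kind, beside 15.7% and 9.11% of all 7550 genes. The share of members was thus below that of all genes for higher and near it for lower, and nothing is read from these counts. The amino acid carrier Slc38a2 had 47.3, 46.99 and 44.9 CPM in these cells, from 20, 20 and 13 UMIs, and 19.6, 26.1 and 20.7 CPM in the rest. The phosphate carrier Slc20a1 had 21.3, 42.3 and 37.97 CPM, from only 9, 18 and 11 UMIs, against 15.4, 18.9 and 19.5 CPM. The zinc carrier Slc30a5 had 56.8, 70.5 and 96.7 CPM, from 24, 30 and 28 UMIs, against 46.2, 47.5 and 50.9 CPM. Among the lower ones, the lysosomal peptide carrier Slc15a3 had 305, 239.6 and 231 CPM against 427, 346 and 351 CPM, and Slc8b1 had 87.6, 103 and 121 CPM against 125, 146 and 165 CPM. Slc22a23 had 9.47, 16.4 and 3.45 CPM, from 4, 7 and 1 UMIs, against 24.8, 22.9 and 23.8 CPM.

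The intervals cover counting error only, since the spread between mice was not measured. With every cell thinned to 1000 UMIs, which gives cells equal weight, the ratios to chow of Slc7a2 (1.41 at 3 days and 1.42 at 10 days), Slc25a24 (1.36 at 10 days) and Slc35d2 (1.29 at 10 days) and the ratios at 10 over 3 days of Slc2a6 (1.31) and Slc25a24 (1.43) were under the line.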

How the data were processed

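RNA of single sorted liver cells was counted in 3 libraries, 1 per mouse and diet, made per the labels with the v2 chemistry of the 10x Genomics 3' kit. Values deposited by the authors are raw counts of UMIs for each gene in each barcode and total 21650747, 21471782 and 16538895. Per the submitters' processing notes, Cell Ranger 2.2.0 and the builds mm10 and GRCm38 were used; the annotation release is not given in the sources used here. Coordinates are from GENCODE vM21 (GRCm38), matched by gene ID (28416 of 28692). Members, substrate classes (by SLC family number) and lists were chosen with earlier results of these data known. Counts were summed per gate and divided by their total (numpy 2.4.6, scipy 1.17.1). Named were the 3 highest members of each class, the 10 highest and 10 lowest log2 ratios (1 CPM added) against chow and the 5 highest and 5 lowest at 10 over 3 days. The other genes named, and those in the plots of cell types and of shares, were chosen after their values were seen. Alternatives included TMM factors from edgeR 4.0.16. Doublets were not called, and the deepest 4% of barcodes were left out as an alternative. Functions were tested on simulated data.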

Additional observations from a re-analysis of the deposited data

How the results depend on the processing

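No paired analysis was possible because each group holds 1 library. Over 10 alternatives 441 of 500 single ratios moved by less than their counting intervals, 57 moved further and 2 reversed, and the 12 unthinned shares per library all moved. The cause was not tested for any of the following. With a Kupffer marker share of at least 3%, which kept 259, 170 and 59 cells, Slc2a6 had a ratio of 0.737 and Slc35d2 of 0.860 at 10 days over chow. The members higher and lower were then 22 and 9 at 3 days, 36 and 17 at 10 days and 30 and 19 at 10 over 3 days, where the median log2 ratio was 0.21. Shares over all genes rose too, to 11.6% and 7.95%, 24.03% and 15.1%, and 20.5% and 16.4%. With a mitochondrial maximum of 5% (1098, 1688 and 384 cells), 5 were lower at 10 days, and 6 were higher and 8 lower at 10 over 3 days (all genes 3.17%, 3.88% and 4.801%). Leaving out the deepest 4% of barcodes, scaling without mitochondrial and ribosomal protein genes and TMM scaling each gave 1 lower at 10 over 3 days (all genes 1.96%, 2.35% and 2.08%). Thinning gave 2 lower at 3 days, 1 lower at 10 days, and 4 higher and 6 lower at 10 over 3 days (all genes 3.09%, 4.72%, 3.41% and 3.83%). Without barcodes holding a UMI of 5 endothelial genes, an alternative chosen after seeing the data, 13 were higher and 1 lower at 3 days, and 5 were higher and 3 lower at 10 over 3 days (all genes 3.51%, 1.92%, 2.82% and 2.51%). A limit of 20 CPM left 82 members, with 3 higher at 3 days, 3 at 10 days and 1 at 10 over 3 days (all genes 2.87%, 3.73% and 1.83%). With no limit (271 symbols) 58 were higher and 35 lower at 3 days, 42 and 45 at 10 days, with a median log2 ratio of 0.041, and 28 and 46 at 10 over 3 days. The share over all genes was not counted for this setting, so nothing is read from these counts. A 2-fold line left 2, 4 and 1 higher (all genes 0.384%, 0.702% and 0.344%). The ratio of Slc36a1 at 3 days was 1.497 with TMM scaling and 1.395 at a marker share of at least 3%, both under the line.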
